A study of Saccharomyces cerevisiae and Saccharomyces cerevisiae x Saccharomyces paradoxus with 20 samples.

Results

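Chromatin accessibility of the S. cerevisiae allele was compared between diploid hybrids and the haploid S. cerevisiae strain of each cross, in 8 of the 20 samples of the study. FAIRE-Seq recovers the DNA that formaldehyde crosslinking leaves free of protein, so that open chromatin gives more reads. The hybrids were the UWOPS05_217_3-CBS432 hybrid and the DBVPG1373-CBS432 hybrid, diploids that carry 1 S. cerevisiae and 1 S. paradoxus genome and of which only the S. cerevisiae reads were used, and each was set against haploid UWOPS05_217_3 or haploid DBVPG1373. Every group had 2 biological replicates, grown in rich YEPD medium and taken in log phase. The regions are 3498 nucleosome-free regions (NFRs), stretches of open chromatin upstream of start codons that the study called from FAIRE peaks and merged over replicates and species. Members were the NFRs at which the hybrid differed from the haploid in the same direction in both strains, at an adjusted p under 0.05 in 1 model of both strains, and 8 of 3498 NFRs met that rule. All 8 were less accessible in the hybrids, and each lies upstream of a gene for mating between haploid cells.

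A haploid yeast cell has 1 of the mating types a and alpha. Cells of type a express a-specific genes, which encode the pheromone a-factor, its exporter and the receptor for alpha-factor, and cells of type alpha express the alpha-specific counterparts. Haploid-specific genes, among them those of the G protein that the pheromone receptors activate and of the kinase FUS3, are used by both types. In an ordinary a/alpha diploid the a1-alpha2 repressor switches haploid-specific genes off and alpha2 switches a-specific genes off, so that such diploids do not mate. The labels give ploidy but no mating type. Hybrid and haploid also differ in the presence of the S. paradoxus genome and in mapping, since haploid reads were mapped to 1 genome and hybrid reads to both together, and these differences cannot be told apart here. Nor can fewer cells with an open region be told apart from less opening in every cell.

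Counts over all NFRs summed to between 1429044 and 2036883 for the S. cerevisiae alleles of the hybrid libraries, and to between 2561228 and 4198250 for the haploid libraries. Values below are counts scaled to that total, as counts-per-million (CPM), and a log2 difference is the log2 of hybrid over haploid, so a negative value means less accessible in the hybrid. A read that covers several counted sites may enter more than once. Replicates of 1 group differed by a median of 0.37 (UWOPS05_217_3 hybrid), 0.37 (UWOPS05_217_3 haploid), 0.33 (DBVPG1373 hybrid) and 0.50 (DBVPG1373 haploid) on the log2 scale, over the 3431 NFRs that averaged 20 counts or more. CPM are not scaled to the width of an NFR.

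Few NFRs passed the threshold, which with 2 libraries a group does not show that the others were unchanged. EdgeR's quasi-likelihood test with Benjamini-Hochberg adjustment over all NFRs was used at an adjusted p under 0.05. It called 3 lower (0.0858%) and 0 higher (0%) in the UWOPS05_217_3 hybrid, and 5 lower (0.143%) and 0 higher (0%) in the DBVPG1373 hybrid. At an unadjusted p under 0.05 the counts were 98 and 86 NFRs, and DESeq2 called 11 and 7. The 3 NFRs called in both strains were those of STE2, STE4 and MFA2. With all 8 libraries in 1 model, the mean of both strain effects passed for 8 NFRs that were lower in both strains (0.229%), and for 0 that were higher (0%), against 155 NFRs at an unadjusted p under 0.05. DESeq2 called 15 lower and 6 higher, among them all 8. The single-strain counts depended on single libraries. For UWOPS05_217_3 they were 21 and 7 NFRs without hybrid replicates 1 and 2 and 11 and 24 without haploid replicates 1 and 2, and for DBVPG1373 they were 2 and 2 without hybrid replicates 1 and 2 and 21 and 118 without haploid replicates 1 and 2. Of those 118 NFRs, 66 were higher and 52 lower in the hybrid. In these fits, and in all others that leave 1 library in a group, that library is assumed to vary like the others.

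Both genes for a-factor, the lipid-modified pheromone that a cells secrete, had less accessible NFRs in the hybrids. The NFR of MFA2 (YNL145W) spans 351311 to 352324 on chromosome XIV, is 1013 bp wide and had the most counts of the 8. It also covers the start codons of the open reading frames YNL146C-A and YNL146W, and its centre lies inside YNL146W. It had 499 and 640 CPM in the UWOPS05_217_3 hybrid, against 2103 and 2376 CPM in the haploid. In the DBVPG1373 cross it had 515 and 566 CPM in the hybrid and 2276 and 2946 CPM in the haploid. Hybrid and haploid values were far apart in both strains, and the 4 hybrid values lay close together. The log2 difference was -1.98 ± 0.28 (SE) in UWOPS05_217_3 (adjusted p = 0.032) and -2.27 ± 0.34 in DBVPG1373 (adjusted p = 0.0174), and the joint value was -2.12 ± 0.20 (adjusted p = 0.000164). MFA1 (YDR461W), on chromosome IV from 1384904 to 1385155, had 201 and 374 CPM in the UWOPS05_217_3 hybrid, against 815 and 980 CPM in the haploid. The DBVPG1373 values were 295 and 306 CPM in the hybrid and 1123 and 1436 CPM in the haploid. No hybrid library came near a haploid one, although the replicates of the UWOPS05_217_3 hybrid stood apart from each other. The joint difference at MFA1 was -1.87 ± 0.23 (adjusted p = 0.0019), and it passed in DBVPG1373 alone (adjusted p = 0.0174) but not in UWOPS05_217_3 alone (adjusted p = 0.289).

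STE6 (YKL209C), which encodes the membrane transporter that exports a-factor, had an NFR of 191 bp on chromosome XI (46342 to 46533). It had 149 and 162 CPM in the UWOPS05_217_3 hybrid, against 320 and 435 CPM in the haploid. The DBVPG1373 hybrid had 163 and 116 CPM and its haploid 282 and 444 CPM. The gap was narrower than at MFA1 or MFA2, and the joint difference of -1.33 ± 0.24 passed narrowly (adjusted p = 0.0474).

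The largest difference of the 8 was at STE2 (YFL026W), the receptor by which a cells detect alpha-factor. Its NFR is 710 bp wide on chromosome VI (81830 to 82540) and also lies upstream of the divergent gene GYP8 (YFL027C), a GTPase activator of vesicle traffic. It had 252 and 176 CPM in the UWOPS05_217_3 hybrid, against 1324 and 1964 CPM in the haploid. The DBVPG1373 values were 170 and 194 CPM in the hybrid and 1363 and 2143 CPM in the haploid. All 4 hybrid values were a fraction of the lowest haploid value, which corresponds to 7.69-fold lower accessibility in the UWOPS05_217_3 hybrid and 9.63-fold lower in the DBVPG1373 hybrid. The log2 differences were -2.94 ± 0.33 (adjusted p = 0.00853) and -3.27 ± 0.36 (adjusted p = 0.00249), with a joint value of -3.11 ± 0.24 (adjusted p = 5.9e-05). Among the CPM of all NFRs, STE2 stood at the 57.2nd and 52.2nd percentiles in the UWOPS05_217_3 and DBVPG1373 hybrids, against the 99.0th and 99.1st percentiles in the haploids.

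The receptors signal through a G protein, and the NFRs of its alpha and beta subunits were both lower. STE4 (YOR212W), the beta subunit that passes the signal on, has an NFR of 522 bp on chromosome XV (742308 to 742830). It had 137 and 140 CPM in the UWOPS05_217_3 hybrid, against 584 and 974 CPM in the haploid, and 138 and 125 CPM in the DBVPG1373 hybrid, against 697 and 1259 CPM in the haploid. The 4 hybrid libraries were nearly alike at STE4 while the haploid replicates differed among themselves, and the joint difference was -2.69 ± 0.25 (adjusted p = 0.000164). It passed in each strain alone, at -2.49 ± 0.31 (adjusted p = 0.0142) and -2.89 ± 0.36 (adjusted p = 0.00478). GPA1 (YHR005C), the alpha subunit that holds the signal back, had 430 and 353 CPM at its NFR on chromosome VIII (114871 to 115121) in the UWOPS05_217_3 hybrid, against 781 and 1025 CPM in the haploid. In DBVPG1373 these were 428 and 460 CPM in the hybrid and 1133 and 1513 CPM in the haploid. Its CPM in the hybrids were still at the 78.8th and 82.5th percentiles of all NFRs, and its joint difference was -1.39 ± 0.19 (adjusted p = 0.00687). In neither strain alone did GPA1 pass (adjusted p = 0.393 and 0.165).

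The remaining members were the NFRs of FUS3, the mitogen-activated protein kinase at the end of the pheromone cascade, and of FAR1, the scaffold and inhibitor that halts the cell cycle in response to pheromone. At FUS3 (YBL016W; chromosome II, 192064 to 192478), accessibility was 206 and 405 CPM in the UWOPS05_217_3 hybrid, against 690 and 959 CPM in the haploid. It was 291 and 239 CPM in the DBVPG1373 hybrid and 801 and 1528 CPM in the haploid. Groups did not overlap, but replicates of both the UWOPS05_217_3 hybrid and the DBVPG1373 haploid were far from each other, and the joint difference was -1.79 ± 0.27 (adjusted p = 0.0141). FAR1 (YJL157C; chromosome X, 126341 to 126653) had the fewest counts of the 8, with 73.6 and 97.3 CPM in the UWOPS05_217_3 hybrid, against 242 and 279 CPM in the haploid. The DBVPG1373 values at FAR1 were 108 and 66.4 CPM in the hybrid and 184 and 299 CPM in the haploid. Its joint difference was -1.54 ± 0.27 (adjusted p = 0.0472).

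**Figure D1:**
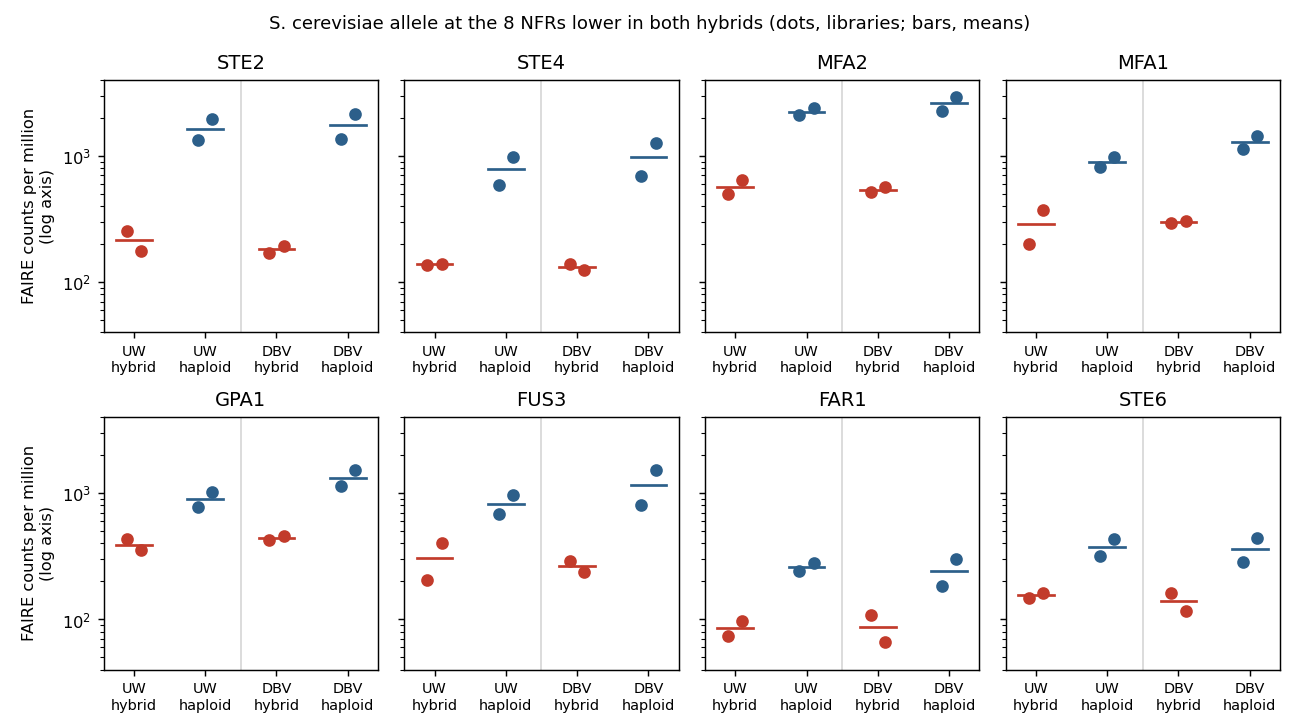
FAIRE CPM (log axis) of the S. cerevisiae allele at the 8 NFRs, by library, with UW for UWOPS05_217_3 and DBV for DBVPG1373, hybrid in red to the left of haploid in blue, and bars at the mean of 2 replicates. In every panel both hybrid libraries lie below both haploid libraries of the same strain, with the widest gap at STE2 (170 to 252 CPM in hybrids and 1324 to 2143 CPM in haploids).

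Members differed in how far their calls rested on single libraries. STE2, STE4, MFA2 and MFA1 passed jointly under all 12 alternatives tried, which include leaving out each of the 8 libraries in turn, though MFA1 came close to the threshold without replicate 1 (adjusted p = 0.04998) or 2 (0.0453) of the DBVPG1373 hybrid. GPA1 no longer passed without replicate 2 of the UWOPS05_217_3 hybrid (adjusted p = 0.0918) or without replicate 1 (0.121) or 2 (0.108) of the DBVPG1373 hybrid. FUS3 no longer passed without replicate 1 of the UWOPS05_217_3 hybrid (adjusted p = 0.0804) or without replicate 1 (0.121) or 2 (0.213) of the DBVPG1373 hybrid. FAR1 and STE6 passed under 4 of the 12 alternatives. Among the sets with 1 library left out, they passed without replicate 1 of the DBVPG1373 haploid, and each lost its call without any of the other 7 libraries, with adjusted p between 0.0798 and 0.416 for FAR1 and between 0.0546 and 0.437 for STE6. The direction was kept throughout, with joint differences between -2.07 and -1.52 for FUS3, between -1.49 and -1.28 for GPA1, between -1.73 and -1.34 for FAR1 and between -1.48 and -1.15 for STE6. With TMM scaling, which centres the bulk of NFRs in place of the totals, GPA1, FUS3, FAR1 and STE6 missed the threshold (adjusted p between 0.0578 and 0.131). DESeq2 called all 4, as did edgeR once NFRs averaging under 10 counts were left out.

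The 8 NFRs lie on 8 chromosomes, are between 191 and 1013 bp wide (median 363 bp, against 234 bp for all NFRs), and 2 of them face genes on both strands. Hybrid and haploid libraries did not overlap in either strain at any of the 8, with the hybrid lower, which describes members chosen by the same contrast. Over all NFRs, 146 (4.17%) were lower in the hybrid without overlap in either strain and 90 (2.57%) were higher. The difference between strains was not significant for any NFR (0 of 3498 by edgeR or by DESeq2, 29 at an unadjusted p under 0.05). At the 8 members the UWOPS05_217_3 difference minus the DBVPG1373 difference was between -0.14 and 0.70 on the log2 scale, with SEs between 0.38 and 0.53. With 2 libraries a group this does not show that the strains were alike. Across the same 3431 NFRs, the differences of both strains correlated with Pearson's r = 0.35, and with r = 0.32 after the 8 members were left out. This is a description across NFRs, which are not independent, and the strains share no library.

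**Figure D2:**
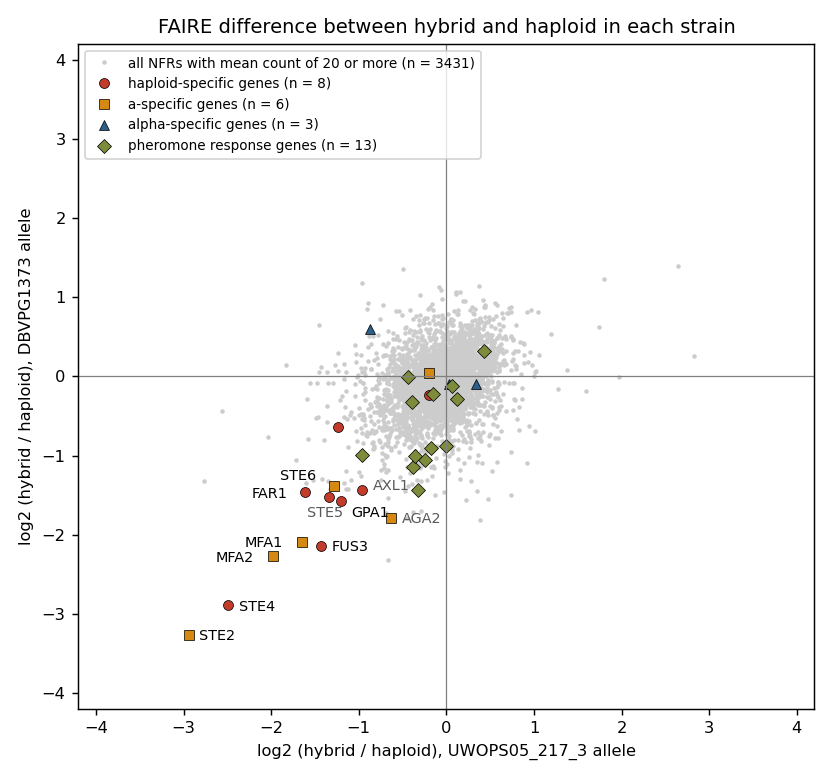
Log2 difference of hybrid over haploid at each NFR for the UWOPS05_217_3 allele (x axis) and the DBVPG1373 allele (y axis), with 3431 NFRs in grey and those of 4 gene lists in colour. Haploid-specific and a-specific genes extend to the lower left as far as STE2 at -2.94 and -3.27, and alpha-specific genes do not.

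All 8 belong to lists of haploid-specific and a-specific genes, of which 14 NFRs were measured. Just inside the threshold were FAR1 and STE6 at adjusted p = 0.0472 and 0.0474, and just outside it were AGA2 (0.103) and STE5 (0.123), both of which DESeq2 called (adjusted p = 0.00953 and 0.00147). All 10 NFRs with the smallest joint p belong to these 2 lists. AGA2, the binding subunit of the a-agglutinin by which mating cells adhere, had 206 and 161 CPM in the UWOPS05_217_3 hybrid against 265 and 304 CPM in the haploid, and 170 and 99.9 CPM in the DBVPG1373 hybrid against 393 and 538 CPM in the haploid. Its joint difference was -1.21 ± 0.24. STE5, the scaffold of the pheromone kinase cascade, had 230 and 166 CPM in the UWOPS05_217_3 hybrid against 528 and 477 CPM in the haploid, and 172 and 108 CPM in the DBVPG1373 hybrid against 577 and 228 CPM in the haploid. At both genes the groups did not overlap in either strain, but replicates of the DBVPG1373 haploid differed widely at STE5, whose joint difference was -1.43 ± 0.29. Without replicate 2 of the DBVPG1373 haploid the joint difference at STE5 was -1.69.

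The other NFRs of the haploid-specific list were those of AXL1, HO and STE18. AXL1, a protease of a-factor maturation that also directs axial budding, had 91.8 and 98.0 CPM in the UWOPS05_217_3 hybrid against 207 and 162 CPM in the haploid. In DBVPG1373 it had 75.6 and 79.2 CPM in the hybrid and 296 and 122 CPM in the haploid (joint -1.20 ± 0.30, adjusted p = 0.36). Groups again did not overlap, and the joint difference at AXL1 was -1.45 without replicate 2 of the DBVPG1373 haploid. HO, the endonuclease of mating-type switching, had few counts in every library, with 48.7 and 25.9 CPM in the UWOPS05_217_3 hybrid against 96.1 and 80.3 CPM in the haploid, and with overlapping values in DBVPG1373 (31.4 and 53.1 CPM against 82.8 and 48.4 CPM). STE18, the gamma subunit of the same G protein, shares an NFR of 580 bp with TMH11 and differed from STE4 and GPA1. It had 590 and 404 CPM in the UWOPS05_217_3 hybrid against 529 and 607 CPM in the haploid, and 653 and 982 CPM in the DBVPG1373 hybrid against 1066 and 867 CPM in the haploid. These groups overlapped in both strains, and the joint difference of -0.22 ± 0.21 did not pass (adjusted p = 0.912). Of the a-specific list, the NFR of ASG7, a regulator of pheromone signalling, also overlapped in both strains (joint -0.07 ± 0.29). The genes RME1, NEJ1, RDH54 and BAR1 of the 2 lists had no NFR upstream of them in the files.

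In all, 6 of 8 NFRs of haploid-specific genes and 5 of 6 of a-specific genes were lower in the hybrid without overlap in either strain, beside the 4.17% of all NFRs, and none was higher. Their median joint differences were -1.41 and -1.60, against -0.08 over all NFRs. These counts and medians include the 8 members, which were chosen by the same contrast. Of the list NFRs that are not members, those of STE5, AXL1 and AGA2 did not overlap in either strain. HO overlapped in DBVPG1373, and STE18 and ASG7 overlapped in both strains. No NFR of an alpha-specific gene passed, but an NFR that is hardly open in the haploid has little accessibility to lose. The 3 measured NFRs, of the alpha-factor gene MF(ALPHA)1, the a-factor receptor STE3 and the alpha-agglutinin SAG1, had joint differences of -0.03 ± 0.28, -0.14 ± 0.61 and 0.12 ± 0.37. MF(ALPHA)1 had 231 and 232 CPM in the UWOPS05_217_3 hybrid against 261 and 194 CPM in the haploid, and 155 and 168 CPM in the DBVPG1373 hybrid against 245 and 98.8 CPM in the haploid. The NFR of STE3 had very few counts, with 3.93 to 21.7 CPM over the 4 hybrid libraries and 3.51 to 22.1 CPM over the 4 haploid libraries. A lower value in the hybrid could therefore hardly be seen at STE3.

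Other genes that act in the pheromone response were listed separately, and 0 of their 13 NFRs passed. The median of the 13 was -0.44, against -0.08 over all NFRs, and 12 of them were negative, beside 2103 of all 3498 NFRs. By strain, the median of the 13 was -0.88 in DBVPG1373 and -0.25 in UWOPS05_217_3. TEC1, a transcription factor of filamentous growth and mating, was the only one without overlap in either strain, with 85.8 and 134 CPM in the UWOPS05_217_3 hybrid against 145 and 283 CPM in the haploid. It had 158 and 117 CPM in the DBVPG1373 hybrid and 205 and 342 CPM in the haploid (joint -0.98 ± 0.30, adjusted p = 0.749). SST2, which switches the G protein off, had a joint difference of -0.88 ± 0.23 (adjusted p = 0.382), made up of -0.33 in UWOPS05_217_3 and -1.43 in DBVPG1373. FUS1, a membrane protein of cell fusion, stood at -0.65 ± 0.23, and STE12, the transcription factor of the response, at -0.36 ± 0.27.

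The NFRs next in order of p were not all of mating genes. AMN1, a regulator of the separation of daughter cells, had 459 and 593 CPM in the UWOPS05_217_3 hybrid against 769 and 1331 CPM in the haploid, and 696 and 612 CPM in the DBVPG1373 hybrid against 1151 and 1873 CPM in the haploid. Its groups did not overlap, and the joint difference was -1.10 ± 0.24 (adjusted p = 0.145). Without replicate 1 of the DBVPG1373 haploid the joint difference at AMN1 was -1.26. On the side of higher accessibility in the hybrid, AQY2, a water channel, had 189 and 626 CPM in the UWOPS05_217_3 hybrid against 107 and 127 CPM in the haploid. In DBVPG1373 AQY2 had 479 and 456 CPM in the hybrid and 175 and 223 CPM in the haploid (joint 1.51 ± 0.32, adjusted p = 0.128). Without replicate 1 of the UWOPS05_217_3 hybrid the joint difference at AQY2 was 1.82. PHO84, the high-affinity phosphate transporter, had 180 and 164 CPM in the UWOPS05_217_3 hybrid against 53.7 and 49.1 CPM in the haploid, with a smaller gap in DBVPG1373 (88.9 and 109 CPM against 60.1 and 67.9 CPM) and a joint difference of 1.19 ± 0.27 (adjusted p = 0.212). The cell wall protein gene HPF1 rested on few reads, with 85.8 and 46.2 CPM in the UWOPS05_217_3 hybrid against 8.54 and 12.4 CPM in the haploid (joint 2.02 ± 0.44, adjusted p = 0.157). DESeq2 called AQY2, PHO84, HPF1, YOR082C, MET17 and the NFR between PMT1 and RPN6 higher in the joint model, which edgeR did not. At YOR082C the difference lay mostly in 1 hybrid, at 2.83 in UWOPS05_217_3 and 0.25 in DBVPG1373 by edgeR. AMN1, AQY2, PHO84 and HPF1 are given because they were next in order of p, and were named after their values were seen.

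The S. paradoxus allele of the same hybrids, set against haploid CBS432, was called lower at some of the same mating genes. At this allele, 7 NFRs were lower (0.2%) and 2 higher (0.0572%) in the UWOPS05_217_3 cross, and 6 were lower (0.172%) and 0 higher (0%) in the DBVPG1373 cross. Both crosses were set against the same 2 haploid CBS432 libraries. These counts rested on single libraries. The 9 NFRs of the UWOPS05_217_3 cross became 38 without hybrid replicate 1 and 18 without CBS432 haploid replicate 1, and 6 of the 9 were among the 12 called without hybrid replicate 2. The 6 NFRs of the DBVPG1373 cross became 10 and 17 without hybrid replicates 1 and 2 and 41 without CBS432 haploid replicate 2, and 5 of the 6 were among the 7 called without CBS432 haploid replicate 1. STE2, STE4, MFA2 and MFA1 were called lower in both crosses and FUS3 in the UWOPS05_217_3 cross. GPA1, FAR1 and STE6 were below 0 at this allele but passed in neither cross. Their log2 differences were -0.90 ± 0.35, -1.31 ± 0.35 and -0.62 ± 0.47 in the UWOPS05_217_3 cross. In the DBVPG1373 cross they were -1.13 ± 0.36, -1.42 ± 0.33 and -1.45 ± 0.53. At STE2, the CBS432 allele had 298 and 392 CPM in the UWOPS05_217_3 cross against 1323 and 1612 CPM in the CBS432 haploid, and 295 and 326 CPM in the DBVPG1373 cross against 1300 and 1568 CPM. STE2 was therefore among the accessible NFRs in all 3 haploid strains, with values between 1300 and 2143 CPM. Its log2 difference at the CBS432 allele was -2.09 ± 0.31 in the UWOPS05_217_3 cross and -2.21 ± 0.26 in the DBVPG1373 cross, beside -2.94 and -3.27 at the S. cerevisiae alleles. The allele by ploidy interaction at STE2 was -0.85 ± 0.42 (unadjusted p = 0.0576) and -1.06 ± 0.40 (unadjusted p = 0.0179), with adjusted p = 1 in both. For STE4 the CBS432 allele had 51.9 and 85.9 CPM in the UWOPS05_217_3 cross against 585 and 756 CPM in the haploid, a difference of -3.29 ± 0.35. No NFR passed the interaction test in either cross (0 of 3498 in each, with 66 and 57 at an unadjusted p under 0.05). With these few libraries that does not show that the alleles differed alike, and no detection limit was computed.

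The other NFRs called lower at the CBS432 allele in both crosses were those of ZRT1 and ZPS1, and neither passed at the S. cerevisiae allele. ZRT1, the high-affinity zinc transporter, had 366 and 210 CPM at the CBS432 allele in the UWOPS05_217_3 cross against 1087 and 1061 CPM in the CBS432 haploid (log2 difference -1.90 ± 0.31, adjusted p = 0.00116). The S. cerevisiae allele of ZRT1 had 409 and 491 CPM in the UWOPS05_217_3 hybrid against 305 and 391 CPM in the haploid, and 817 and 916 CPM in the DBVPG1373 hybrid against 459 and 734 CPM in the haploid. Its joint difference was 0.45 ± 0.20 (adjusted p = 0.898). The interaction was 2.27 (unadjusted p = 3.8e-05, adjusted p = 0.134) and 2.12 (unadjusted p = 6.2e-05, adjusted p = 0.216). ZPS1, a zinc-regulated cell wall protein, was lower at the CBS432 allele in both crosses (-2.12 and -2.06), against 0.26 ± 0.40 and -0.76 ± 0.65 at the S. cerevisiae allele. Its interaction was 2.37 (unadjusted p = 0.000222, adjusted p = 0.319) in the UWOPS05_217_3 cross and 1.30 (unadjusted p = 0.0785, adjusted p = 1) in the DBVPG1373 cross. AQY2, higher at the S. cerevisiae allele, was below 0 at the CBS432 allele (-0.97 ± 0.34 and -0.62 ± 0.26) and passed in neither cross. The interaction at AQY2 was 2.76 (unadjusted p = 0.000364, adjusted p = 0.319) and 1.84 (unadjusted p = 0.000201, adjusted p = 0.352).

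**Figure D3:**
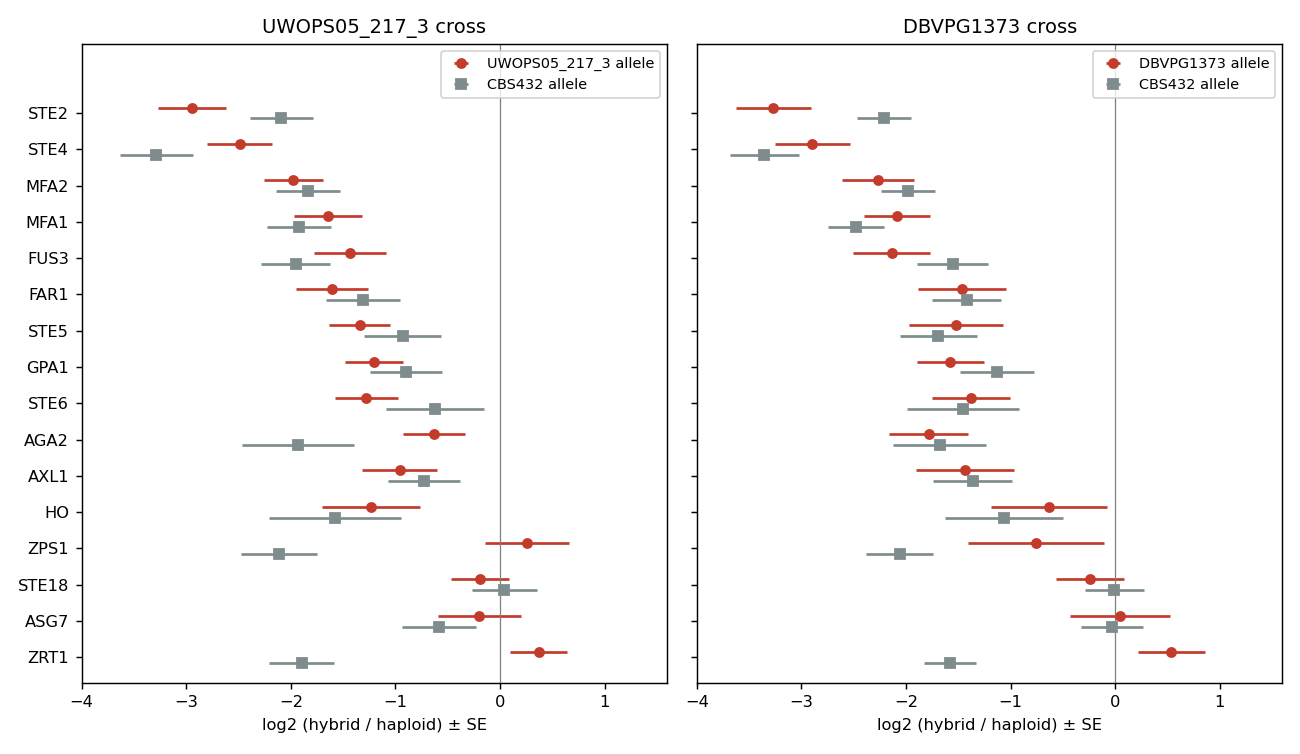
Log2 difference of hybrid over haploid with its SE at the S. cerevisiae allele (red circles) and the CBS432 allele (grey squares) for the NFRs of 14 haploid-specific and a-specific genes, ZRT1 and ZPS1, in each cross. At STE2 both alleles are far below 0 (-2.94 and -2.09 in the UWOPS05_217_3 cross), whereas at ZRT1 the S. cerevisiae allele is at 0.37 and the CBS432 allele at -1.90.

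RNA of the UWOPS05_217_3 allele was used as a separate readout, in 2 hybrid and 2 haploid libraries with totals of 36188856 and 54578576 counts in the hybrid and of 78357206 and 94744784 counts in the haploid. Many genes were called in RNA, with 873 lower (17.5%) and 396 higher (7.93%) of 4993 tested. That split depends on scaling, and with TMM factors 563 genes were lower and 571 higher. RNA libraries held many more counts than FAIRE libraries, and RNA differences at the members had smaller SEs. The numbers called in RNA and FAIRE therefore do not compare the extent of change. The 8 members are paired with 11 genes, of which 8 were in the RNA tables, and 7 of these had lower RNA in the hybrid. STE2 RNA was at 16.8 and 14.9 CPM in the hybrid, against 1866 and 1881 CPM in the haploid, which is 118-fold lower (log2 -6.88 ± 0.13, adjusted p = 1.7e-12). MFA2 RNA was at 0.68 and 0.91 CPM against 377 and 365 CPM (log2 -8.90 ± 0.16), and MFA1 RNA at 0.99 and 1.11 CPM against 39.7 and 45.0 CPM (log2 -5.35 ± 0.20). MFA1 and MFA2 have similar coding sequences, so reads may have been split between them. FUS3 RNA fell to 0.24 and 1.22 CPM in the hybrid, against 259 and 296 CPM in the haploid (log2 -8.75 ± 0.33). The corresponding log2 differences were -4.49 ± 0.11 for STE6 and -3.73 ± 0.13 for FAR1, and at each of these 6 genes the RNA value was larger in size than the FAIRE value, a difference that was not tested. The remaining pair sit beside a mating gene. GYP8, which shares the NFR of STE2, had 42.4 and 46.9 CPM in the hybrid against 141 and 134 CPM in the haploid (log2 -1.62 ± 0.11), and YNL146W beside MFA2 did not pass (0.62 ± 0.24, adjusted p = 0.077). GPA1, STE4 and YNL146C-A were not in the RNA tables used here.

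The counts of lower RNA that follow stand beside 17.5% of all genes, or 563 of 4993 with TMM factors. Of the haploid-specific list, all 7 genes with RNA were lower, among them NEJ1, a regulator of end joining that has no measured NFR (log2 -4.39 ± 0.19), and STE18, whose NFR did not pass. STE18 RNA was at 6.83 and 5.64 CPM in the hybrid, against 53.9 and 55.5 CPM in the haploid (log2 -3.13 ± 0.16). STE5 RNA was lower by a log2 of -3.02 ± 0.11 and AXL1 RNA by -2.75 ± 0.14. Of 6 a-specific genes with RNA, 5 were lower, and BAR1, the protease that degrades alpha-factor, was at 322 and 310 CPM in the hybrid against 301 and 299 CPM in the haploid. Among 4 alpha-specific genes with RNA only AFB1, which encodes a secreted blocker of a-factor, was lower, at 15.5 and 13.6 CPM in the hybrid against 43.9 and 55.5 CPM in the haploid (log2 -1.77 ± 0.16). The RNA of STE3 was near 1 CPM in every library, at 1.04 and 0.97 CPM in the hybrid and 1.07 and 0.73 CPM in the haploid. The a-specific STE2 had 1866 and 1881 CPM in the same haploid. With so little RNA in the haploid, STE3 could not show a loss, and gives no contrast with the a-specific genes. Of 12 pheromone response genes with RNA, 7 were lower and 0 higher, including TEC1 (log2 -2.79 ± 0.13), FUS1 (-3.53 ± 0.25) and SST2 (-1.93 ± 0.12).

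Where RNA differed less, FAIRE differences were mostly near 0. Of 3640 genes with both an NFR and RNA, 669 (18.4%) had a lower NFR without overlap in the UWOPS05_217_3 libraries and 413 (11.3%) a higher one. Of the 28 genes whose RNA was lower by a log2 of at least 2, 17 had a lower NFR without overlap, and without the 6 genes of the members it was 11 of 22, with a median FAIRE difference of -0.43. ADE17, of purine synthesis, was 1 of these, with a FAIRE difference of -0.70 and RNA at 125 and 109 CPM in the hybrid against 1124 and 582 CPM in the haploid. Of the 533 genes with RNA lower by a log2 under 1, the median FAIRE difference was -0.09, against -0.06 for the 2712 genes whose RNA did not pass. Of the 14 genes whose RNA was higher by a log2 of at least 1, 6 had a higher NFR without overlap and 0 a lower one, and their median FAIRE difference was 0.35. Among them, the daughter-cell genes DSE1 and DSE2 and the chitinase gene CTS1 had higher RNA in the hybrid (log2 4.32, 3.25 and 2.32) with FAIRE differences of 0.20, -0.44 and -0.24. PHO84, whose FAIRE difference of 1.74 in UWOPS05_217_3 did not pass (adjusted p = 0.327), had higher RNA, at 409 and 529 CPM in the hybrid against 100 and 89.0 CPM in the haploid (log2 2.31 ± 0.13). Over all 3640 genes Pearson's r of FAIRE and RNA differences was 0.17, a description across genes. By the paper's methods each haploid culture was divided between FAIRE and RNA, so the haploid values of both come from the same cultures. The methods do not say this of the hybrids.

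**Figure D4:**
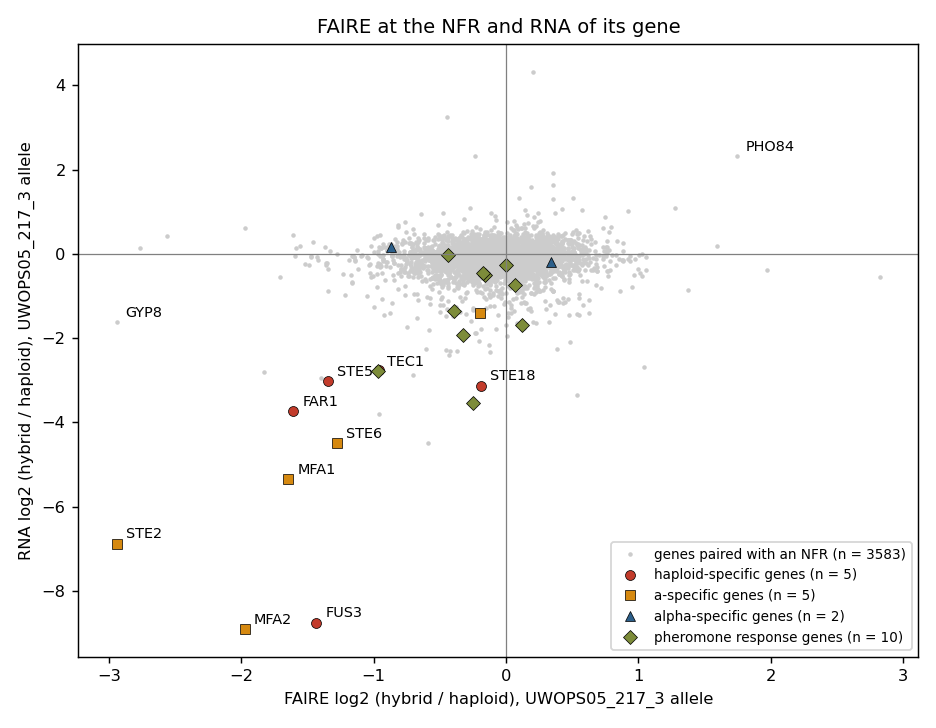
Log2 difference of hybrid over haploid in FAIRE at the NFR (x axis) and in RNA of its gene (y axis) for the UWOPS05_217_3 allele, with genes of at least 20 mean FAIRE counts in grey and 4 gene lists in colour. STE2 (-2.94 in FAIRE and -6.88 in RNA) and MFA2 (-1.98 and -8.90) lie at the lower left, STE18 has lower RNA (-3.13) at a FAIRE difference of -0.19, and most grey genes with RNA differences lie near 0 on the x axis.

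No other gene list held a called NFR. In the ribosomal protein list, 10 of 98 NFRs were higher in the hybrid without overlap in either strain (2.57% over all NFRs) and 0 were lower, and the list's median was 0.23, against -0.08 over all. Level and difference moved together over all NFRs, since the 875 with the highest CPM, which include 6 of the 8 members, had a median of 0.04 and the 875 with the lowest CPM one of -0.16, and the part of level in the list's median was not tested. Ribosome biogenesis genes, by contrast, had a median FAIRE difference of 0.00 over 67 NFRs while 66 of their 84 genes with RNA were higher in the hybrid, beside 7.93% of all genes with RNA, a share that depends on scaling as given above. Of 4 histone NFRs, 3 were higher without overlap, and HTB1, a histone H2B gene, had the lowest p of them (joint 0.59 ± 0.19, adjusted p = 0.898). The lists for zinc, phosphate, iron, glycolysis, hexose transport, heat shock, respiration and sulfate genes had medians between -0.09 and 0.16, and the subtelomeric families had one of -0.30 over 9 NFRs.

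**Figure D5:**
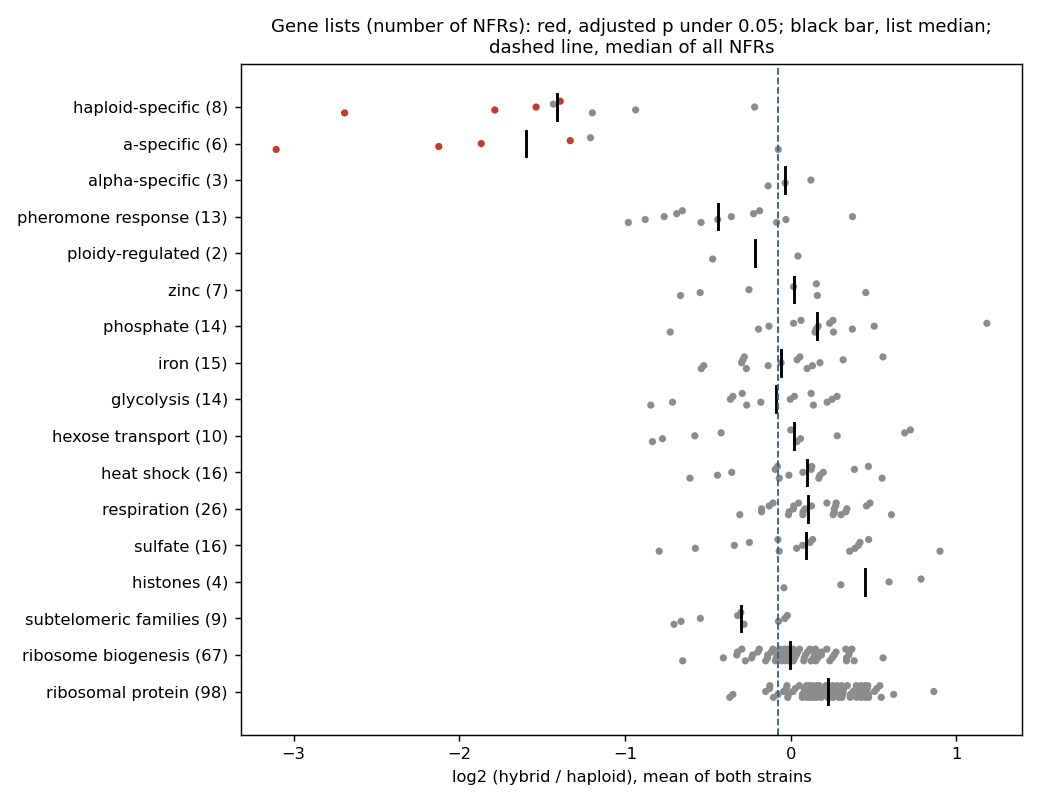
Joint log2 difference of hybrid over haploid for each NFR of 17 gene lists, with the number of NFRs in parentheses, called NFRs in red, list medians as black bars and the median of all NFRs (-0.08) as a dashed line. The 8 called NFRs are 4 haploid-specific and 4 a-specific ones, and the medians of these lists are -1.41 and -1.60, below those of all other lists.

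Whole chromosomes and classes of NFR showed no shift of a like size. Medians of the joint difference by chromosome were between -0.14 (VI) and -0.03 (X), and the 128 NFRs within 30 kb of a chromosome end had a median of -0.11, against -0.08 elsewhere. NFRs facing genes on both strands had a median of -0.06 and those facing 1 strand -0.08. Narrow NFRs under 150 bp stood at -0.12 and those of at least 350 bp at -0.01, while replicate 1 of the DBVPG1373 haploid was above replicate 2 by a median of 0.48 and 0.03 on the log2 scale in the same 2 classes.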

How the data were processed

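FAIRE-Seq and RNA-Seq were done by the authors on haploid strains and hybrids, with 2 biological replicates each. The authors mapped reads with bwa to strain assemblies (hybrids to both genomes together), called NFRs from FAIRE peaks of each replicate and species within 300 bp of a start codon, filtered them on alignment, simulated reads and genomic DNA, and deposited whole-number counts per NFR or gene, with no normalization. The submitters' processing notes name CASAVA, BWA and sacCer3, without versions. Coordinates are as deposited. Gene names came from a RefSeq table of assembly R64, which matched 4596 of 4995 RNA genes, and genes were paired with an NFR within 300 bp upstream, which gave 3429 of 3498 NFRs a gene. Whether RNA counts used strand is not given in the sources used here.

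Counts were tested with edgeR 4.0.16 (quasi-likelihood, library size set to the column total) in R 4.3.3, with Benjamini-Hochberg adjustment over all NFRs and a threshold of 0.05. Genes with a mean RNA count of at least 10 were tested. Alternatives were TMM factors, DESeq2 1.42.0, a mean count of at least 10, a threshold of 0.01, a replicate block and leaving out each library. Scripts were tested on simulated counts. CPM with 2 libraries a group carries the spread between replicates shown. Tables were handled with Python 3.11.15, pandas 2.3.3, numpy 2.4.6 and matplotlib 3.10.9. Named NFRs were those that passed jointly with the same sign in both strains, a mean count of at least 50 and no overlap of groups (at most 12 per direction), plus the NFRs of the gene lists. The members and lists were chosen with earlier results of these data known. The RNA tables of the DBVPG1373 cross were not used, because 1893 of their 5066 rows hold the same value in all 4 tables of S. cerevisiae counts. CBS432 carries the S. cerevisiae organism label but is S. paradoxus by the design text, which was followed.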

Additional observations from a re-analysis of the deposited data

Results flagged for a closer look

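Among the NFRs of the mating, pheromone, ploidy, zinc, phosphate, glycolysis, hexose transport, sulfate and histone lists, those whose libraries moved in opposite directions without overlap in the groups compared are given here as values. Between strains, UWOPS05_217_3 minus DBVPG1373, the difference of the log2 differences was 1.19 at PHO81 (unadjusted p = 0.0128), 1.43 at TDH1 (unadjusted p = 0.0235) and 0.60 at ZRT3 (unadjusted p = 0.334), each with an adjusted p of 1 by edgeR. At PHO81, the regulator of the phosphate response, the UWOPS05_217_3 hybrid had 248 and 242 CPM against 147 and 143 CPM in the haploid, while the DBVPG1373 hybrid had 188 and 201 CPM against 279 and 245 CPM in the haploid. Between alleles, S. cerevisiae minus CBS432, the difference was 2.27 (UWOPS05_217_3 cross) and 2.12 (DBVPG1373 cross) at ZRT1, with adjusted p = 0.134 and 0.216, and 2.37 at ZPS1 in the UWOPS05_217_3 cross (adjusted p = 0.319). It was 1.59 at FLO11 and 0.55 at PHO89 in the DBVPG1373 cross, and 1.52 at TDH1 and -0.46 at MET6 in the UWOPS05_217_3 cross, all with an adjusted p of 1. None of these passed the interaction test. With 2 libraries a group, no sample could be tested for lying far from its group.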

How the results depend on the processing

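Scaling, tool and threshold moved the counts of called NFRs, while the filter at a mean count of 10 kept them. Jointly, the 8 NFRs became 4 with TMM factors, 21 with DESeq2, 13 with the replicate block and 5 at an adjusted p under 0.01. In UWOPS05_217_3 the 3 NFRs became 11 with DESeq2, 17 with the replicate block and 1 at 0.01, and in DBVPG1373 the 5 became 2 with TMM factors and 2 at 0.01. Called in both strains separately were 3 NFRs, 5 with the replicate block and 1 at 0.01. The CBS432 allele gave 20 in place of 9 NFRs (UWOPS05_217_3 cross) and 13 in place of 6 (DBVPG1373 cross) with the replicate block, and RNA 1982 in place of 1269 genes. With the block, AGA2 (adjusted p = 0.0480), STE5 (0.0111), AMN1 (0.0369), AQY2 (0.0351) and TFB2 (0.04999) also passed jointly. Libraries of the same number deviated together in 3 groups (r over NFRs 0.42 between UWOPS05_217_3 hybrid and haploid, 0.50 between both haploids and 0.35 between UWOPS05_217_3 hybrid and DBVPG1373 haploid), and the DBVPG1373 hybrid stood apart (-0.21 with its haploid, -0.09 with the UWOPS05_217_3 hybrid and -0.13 with the UWOPS05_217_3 haploid). The numbers are not known to pair cultures. With the hybrid numbers of DBVPG1373 crossed, a pairing added after seeing the data, 16 NFRs were called in place of 5. Leaving out 1 library gave 4 to 9 NFRs jointly, 7 to 24 in UWOPS05_217_3, 2 to 118 in DBVPG1373 and 2 to 5 in both separately, 12 to 38 and 7 to 41 at the CBS432 allele of the UWOPS05_217_3 and DBVPG1373 crosses, 0 to 2 and 0 to 1 for the allele interactions, 0 for the strain interaction and 780 to 1113 genes for RNA. Of 360 values of 30 named NFRs under alternatives, 329 kept their side of the threshold, 24 lost and 7 gained a call, and none that was called turned its direction. Of 248 values of 31 genes in RNA, 239 kept their side, 5 lost and 4 gained a call. With 2 libraries a group, differences of less than the replicate spread could not be detected.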
